A study of Mus musculus with 8 samples.

Results

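The genes described here are 36 genes that build and watch over the protein-folding machinery of the endoplasmic reticulum (ER): 10 luminal chaperones and their partners, 7 lectins and disulfide isomerases, 5 sensors and transcription factors of the unfolded protein response, 8 components of ER-associated degradation, and 6 components of protein translocation into the ER or of export from it. They are a list of gene names set by known function, drawn up with earlier results of these data known, and all 36 were found among the 55358 genes of the deposited tables. Of these, 35 passed the filter on low levels and were tested together with 13693 genes in all. Derl3 did not pass.

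The libraries came from mouse embryonic fibroblasts (MEFs), cells grown out of embryos and used as a standard model of connective-tissue cells. Wild-type (WT) cells and cells lacking the RNA-binding protein Arid5a (Arid5a-/-, here knockout or KO) were kept for 24 h without interleukin-6 (IL-6) or with 100 ng/ml IL-6, a cytokine that signals through gp130 and Stat3. Each of the 4 groups had 2 libraries of poly(A)-selected RNA, and the study set out to find long noncoding RNAs under the control of IL-6 and Arid5a. The labels do not say whether libraries came from separate cultures, whether WT and KO cells were littermates, or how many lines of each were grown (the deposited columns of all KO libraries carry the mark KO2, which the labels do not explain). The p-values therefore measure only the spread between these libraries, and the effect of the genotype and that of the line cannot be told apart.

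Proteins that enter the secretory pathway are threaded into the ER, folded there by chaperones and disulfide isomerases, and either exported or sent back to the cytosol for destruction. When unfolded proteins build up, the ER membrane proteins Ire1 (gene Ern1), Atf6 and Perk (gene Eif2ak3) become active: Ire1 cuts the Xbp1 mRNA so that it encodes an active factor, Atf6 is cleaved to release one, and Perk slows translation and favours that of Atf4. The factors made in this way switch on chaperone and degradation genes, many of them through a promoter sequence named the ER stress element. Fibroblasts, which secrete collagen and other matrix proteins, are known to keep much of this machinery at high levels without any added stress.

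Levels are given as FPKM, the usual read density of RNA-seq scaled to transcript length and library depth, summed over the transcripts of a gene. FPKM is a level per length, so levels can be compared between genes. Differences are on the log2(FPKM + 1) scale, with the standard error (SE) of the limma fit and an adjusted p, meaning limma's p with Benjamini-Hochberg adjustment over all 13693 genes. A gene passed when its adjusted p was below 0.05. A difference of 1 on this scale is close to a doubling, somewhat more for genes of low level.

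As facts of the whole series, the depth estimated from the steps between low values ran from 37100000 to 47000000 fragments per library. Arid5a itself was at 18.7 and 15.9 FPKM in WT cells without IL-6 and at 5.51 and 6.85 FPKM in KO cells, a difference of -1.35 (SE 0.10, limma adjusted p = 1.32e-05). With IL-6 it was at 30.9 and 31.0 FPKM in WT and at 8.47 and 8.15 FPKM in KO cells, a difference of -1.78 (limma adjusted p = 2.67e-06). The labels do not say which exons were deleted, and the KO libraries still held some Arid5a reads. Of 8 fibroblast markers, 8 reached 1 FPKM in both libraries of each WT group and 7 in those of each KO group, where Thy1 was at 0.414 to 0.919 FPKM. Genotypes differed far beyond these genes: 36.4% of all tested genes passed as higher and 34.5% as lower in KO than in WT cells without IL-6, and 36.9% and 34.8% with IL-6.

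The 36 genes spanned more than 3 orders of magnitude in level. Over the 8 libraries, Calr, a calcium-binding lectin chaperone, had the highest mean at 761.2 FPKM, ranging from 617.0 to 892.4 FPKM. It was followed by P4hb, the classical protein disulfide isomerase, at 660.0 FPKM. Next came Hsp90b1, the Hsp90 of the ER lumen, at 652.3 FPKM, and then Hspa5 (BiP, the Hsp70 of the ER lumen) at 465.6 FPKM. After these came the disulfide isomerase Pdia3 at 401.0 FPKM. These 5 genes made up 59.4% to 61.0% of the summed FPKM of the 36 genes in each library. The order of Calr, P4hb and Hsp90b1 was not the same in every group: in WT cells without IL-6 Hsp90b1 (624.8 and 641.0 FPKM) overlapped Calr (635.9 and 617.0 FPKM) and lay above P4hb (519.1 and 526.2 FPKM), whereas in KO cells it was the lowest of these 3 genes.

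At the other end, the sensors were among the scarcest transcripts. Ern1 averaged 8.36 FPKM, Eif2ak3 9.14 FPKM and Atf6 15.2 FPKM, and of the other members only Dnajb9, an ER J-domain cochaperone, and Derl3 also stayed below 20 FPKM on average. The effector factor Xbp1 averaged 43.6 FPKM, and Atf6b, the paralog of Atf6, 26.5 FPKM. Derl3, a degradation factor related to Derl1 and Derl2, was last at 0.401 FPKM. Duplicate libraries lay close together: the median coefficient of variation over the 35 tested genes, without Derl3, was 2.59% in WT without IL-6, 2.28% in WT with IL-6, 1.29% in KO without IL-6 and 1.87% in KO with IL-6.

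**Figure D1:**
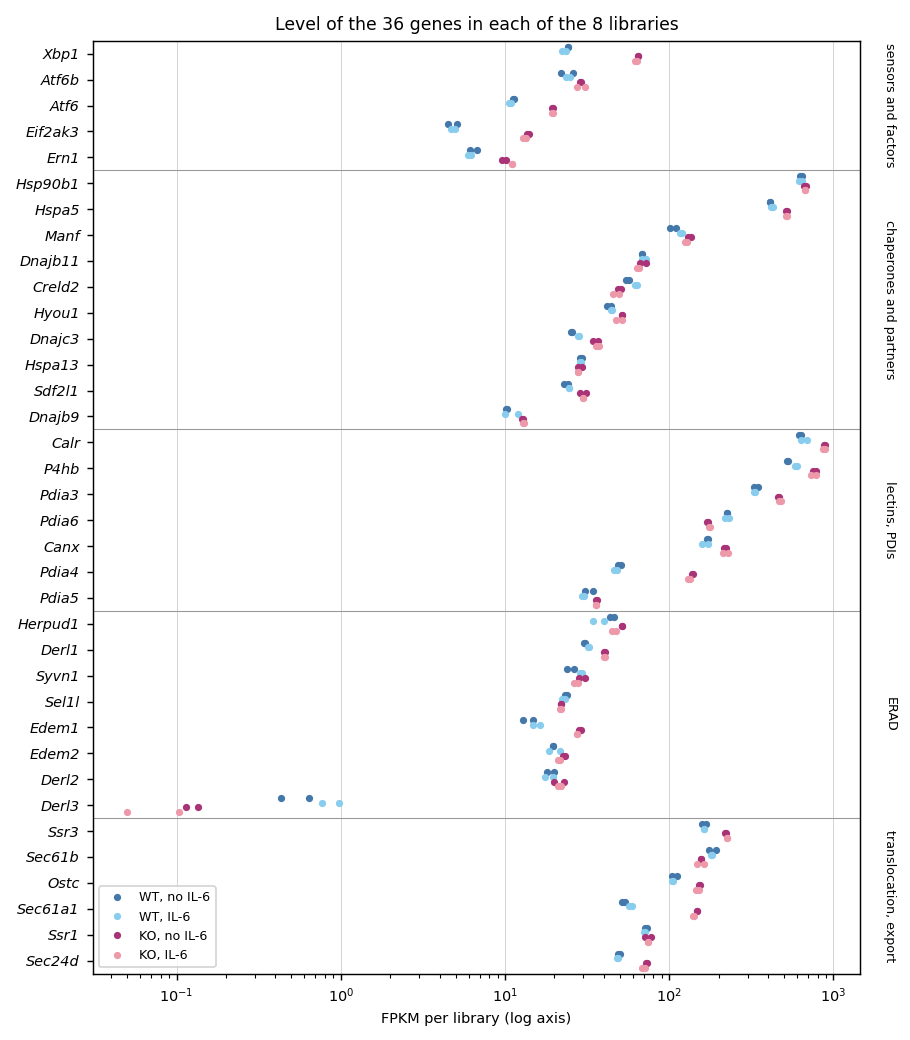
FPKM of each of the 36 genes (rows, grouped by role and ordered by mean level within a role) in each of the 8 libraries, on a log axis; colours mark genotype and IL-6. The lectins, disulfide isomerases and leading chaperones sit above 100 FPKM (apart from Pdia4 in WT and Pdia5), the sensors near or below 65 FPKM, Derl3 below 1 FPKM, and the KO points of Xbp1, Eif2ak3, Pdia4, Sec61a1 and Edem1 stand to the right of the WT points.

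The first comparison asks how the ER genes differed between KO and WT cells without IL-6. Of the 35 tested, 26 were higher in KO cells, against 36.4% of all tested genes, 3 were lower, against 34.5%, and 6 did not pass. The median difference of the 35 was 0.33, whereas that of all tested genes was 0.01. A rise of at least 1 was seen in 5 members, Pdia4, Sec61a1, Xbp1, Eif2ak3 and Edem1, against 9.46% of all tested genes. The 3 lower members were Pdia6, Sec61b and Creld2. In the presence of IL-6, 23 of 35 were higher (36.9% of all tested genes), 3 were lower (34.8%) and 9 did not pass, with a median difference of 0.29 beside 0.01 for all tested genes. With IL-6, 4 of the 35 members (11.4%) rose by at least 1, a share near the 10.3% of all tested genes.

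The 2 genotype comparisons set different libraries against each other. Their calls come from the same fit, with a spread estimated from all 8 libraries, so the 2 sets of calls are not independent. The same 23 members were higher in both, the same 3 lower in both, none passed in opposite directions, and 6 passed in neither (Hsp90b1, Hspa13, Dnajb11, Sel1l, Derl2 and Ssr1). Of all tested genes, 32.4% were higher in both, 30.1% lower in both, 0.372% passed in opposite directions and 20.2% passed in neither, so a like direction in both comparisons was usual for any gene. Manf, Edem2 and Syvn1 passed only without IL-6. Their genotype differences with and without IL-6 were not themselves shown to differ, as given with the test of that difference at the end. The summed FPKM of the 36 genes was 4238.4 to 4414.8 in the 4 WT libraries and 5332.6 to 5472.0 in the 4 KO libraries, or 0.750% to 0.767% and 0.991% to 1.02% of each library's total. Without the 5 most abundant genes, the sums were 1708.9 to 1738.8 and 2081.4 to 2162.0 FPKM, again with no overlap between genotypes.

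**Figure D2:**
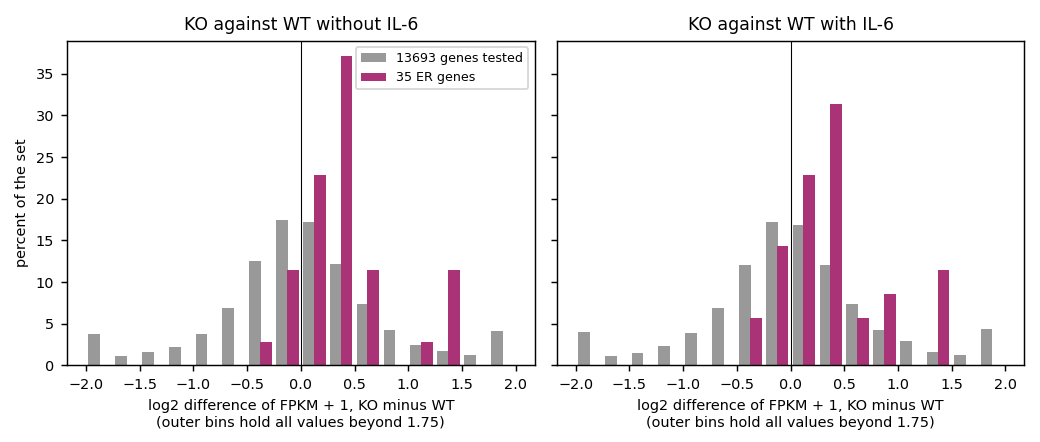
Percent of the 35 tested ER genes and of all 13693 tested genes that fell in each 0.25-wide bin of the KO minus WT difference on the log2(FPKM + 1) scale, without IL-6 (left) and with IL-6 (right); the outermost bins also hold all larger differences. All tested genes centre near 0, at a median of 0.01 in both panels, while the ER genes centre at 0.33 and 0.29.

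All 5 sensors and factors of the response were higher in KO cells in both comparisons. The shares of all tested genes that were higher were 36.4% without and 36.9% with IL-6. Xbp1, the factor downstream of Ire1, was at 24.1 and 24.2 FPKM in WT cells without IL-6, at 23.4 and 22.1 FPKM in WT with IL-6, at 64.5 and 64.2 FPKM in KO without IL-6 and at 63.9 and 62.2 FPKM in KO with IL-6. Every KO library lay far above every WT library, and IL-6 made little difference to either. Without IL-6 the difference was 1.38 (SE 0.041, limma adjusted p = 7.35e-08, a 2.66-fold ratio of means), and with IL-6 it was 1.43 (SE 0.041, limma adjusted p = 5.46e-08).

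Ire1 removes a short intron from the Xbp1 mRNA outside the nucleus, and only the mRNA without it encodes the strong activator. The stretch is shown because a gene-level FPKM sums over both forms. It lies in exon 4 of Xbp1-201 on the plus strand of chromosome 11 of GRCm38.p6, at chr11:5524279-5524304. It is given with 12 flanking bases on either side (chr11:5524267-5524316, RefSeq genome sequence), and the capitals mark the 26 bases that are cut out.
Xbp1: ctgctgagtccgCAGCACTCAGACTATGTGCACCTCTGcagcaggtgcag
In the annotation used here, 4 Xbp1 transcripts are listed, and the shortest intron in any of them is 300 bases. None of the 4 has the 26-base intron. Xbp1-201 held 75.2% of the gene's FPKM in WT and 77.6% in KO cells, and rose in step with the gene, from 17.0 and 18.4 FPKM in WT without IL-6 to 50.2 and 49.0 FPKM in KO. Another transcript of the deposited tables, Xbp1-205, made up 15.5% and 14.9%, and is not in the annotation used here. The share of Xbp1 mRNA cut by Ire1 was therefore not analysed here.

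Eif2ak3, which encodes the sensor kinase Perk, had the largest ratio of means of all members without IL-6. It was at 4.48 and 5.10 FPKM in WT without IL-6, 4.69 and 4.95 FPKM in WT with IL-6, 13.9 and 13.7 FPKM in KO without IL-6, and 12.8 and 13.5 FPKM in KO with IL-6. Both KO groups stood clear of both WT groups. The difference was 1.35 without IL-6 (SE 0.070, limma adjusted p = 1.48e-06, a 2.88-fold ratio of means) and 1.28 with IL-6 (SE 0.070, limma adjusted p = 1.90e-06). Exons of Eif2ak3 share 8.05% of their bases with Gm43292 on the opposite strand, and no source used here says whether fragments were counted by strand, so a part of this value may belong to that gene.

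Atf6, the sensor that is cleaved in the Golgi to release a transcription factor, was at 11.2 and 11.3 FPKM in WT without IL-6, 10.6 and 10.8 FPKM in WT with IL-6, 19.6 and 19.3 FPKM in KO without IL-6, and 19.6 and 19.4 FPKM in KO with IL-6. The WT and KO levels did not overlap. The differences were 0.74 (SE 0.043, limma adjusted p = 3.08e-06) and 0.80 (SE 0.043, limma adjusted p = 1.80e-06). Ern1, which encodes the kinase and RNase Ire1, was at 6.12 and 6.77 FPKM, 6.22 and 5.95 FPKM, 10.2 and 9.64 FPKM, and 11 and 11 FPKM in the same order of groups. Its KO levels were again all above its WT levels, by 0.55 (SE 0.064, limma adjusted p = 1.44e-04) without IL-6 and 0.76 (SE 0.064, limma adjusted p = 2.33e-05) with IL-6.

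Atf6b, which can dampen Atf6, showed the smallest rise of the 5. It was at 25.8 and 21.8 FPKM in WT without IL-6, 23.6 and 24.8 FPKM in WT with IL-6, 28.6 and 29.2 FPKM in KO without IL-6, and 27.5 and 30.5 FPKM in KO with IL-6. The 4 KO libraries lay above the 4 WT libraries, but WT libraries without IL-6 differed from each other by almost as much as the genotypes did. The differences were 0.28 (SE 0.083, limma adjusted p = 0.0192) and 0.25 (SE 0.083, limma adjusted p = 0.0280). Leaving out WT library 2, KO library 1 or KO library 2 of the groups without IL-6 ended the first call (adjusted p 0.0568 to 0.0990), and leaving out WT library 1, WT library 2 or KO library 2 of the groups with IL-6 ended the second (adjusted p 0.055 to 0.158).

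**Figure D3:**
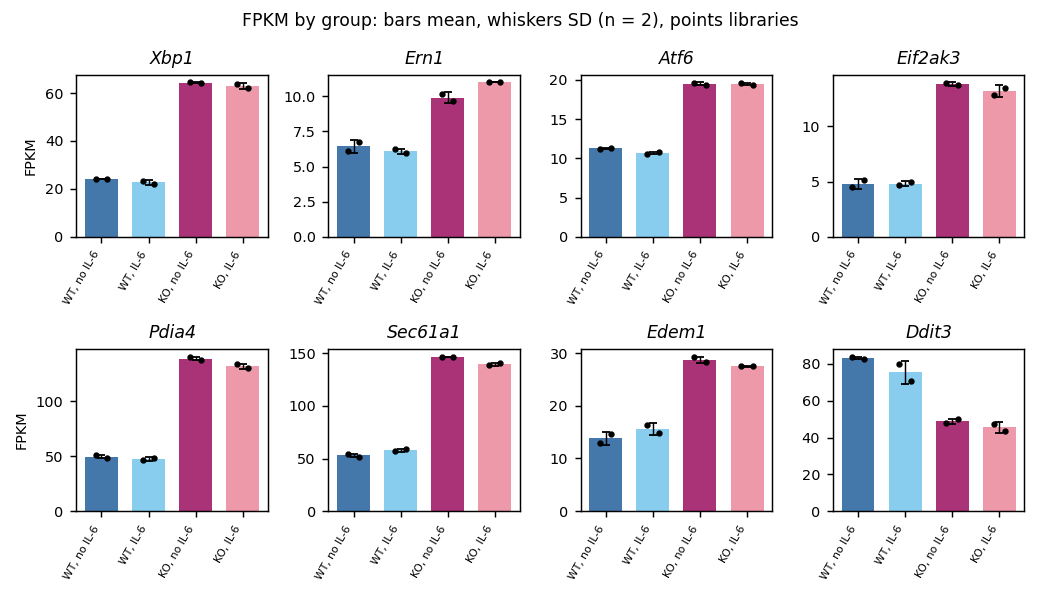
FPKM of Xbp1, Ern1, Atf6, Eif2ak3, Pdia4, Sec61a1, Edem1 and, as a gene that is not one of the 36, Ddit3, by genotype and IL-6; bars are means, whiskers the SD of 2 libraries and points the libraries, and each axis starts at 0. In the first 7 panels both KO groups stand above both WT groups with little change under IL-6, and in the Ddit3 panel they stand below.

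Among the 10 chaperones and their partners, 6 were higher in KO cells without IL-6, 1 was lower and 3 did not pass. Beside these, 36.4% of all tested genes were higher and 34.5% lower. In either direction, 70% of the 10 passed, and 71% of all tested genes did. Hspa5, the master chaperone that also holds the sensors inactive, was at 408.1 and 408.5 FPKM in WT without IL-6, 428.3 and 414.7 FPKM in WT with IL-6, 521.6 and 512.7 FPKM in KO without IL-6, and 512.0 and 519.1 FPKM in KO with IL-6. The KO levels lay above all WT levels, by much less than those of Xbp1. The differences were 0.34 (SE 0.033, limma adjusted p = 5.35e-05, a 1.27-fold ratio of means) and 0.29 (SE 0.033, limma adjusted p = 1.26e-04).

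The other chaperone genes that passed as higher without IL-6 rose by 0.26 to 0.47. They were Dnajc3 (0.47), a cochaperone that also inhibits Perk, Sdf2l1 (0.33), a partner of ER J-proteins, Manf (0.32), a secreted protein that binds BiP, Dnajb9 (0.30) and Hyou1 (0.26), the nucleotide exchange factor of BiP. With IL-6 the same genes except Manf passed: Dnajc3 at 0.36, Sdf2l1 at 0.28, Dnajb9 at 0.23 and Hyou1 at 0.14, while Manf was at 0.10 (limma adjusted p = 0.0837). Of the exon bases of Manf, 8.85% overlap 4930524O07Rik and Dcaf1 on the opposite strand. The Hyou1 and Dnajb9 calls with IL-6 were the weakest. The Hyou1 call ended without either WT or KO library 2 of the IL-6 groups, without WT library 1 of that group, or without either untreated KO library (adjusted p 0.0518 to 0.198). The Dnajb9 call ended without WT library 2, KO library 1 or KO library 2 of the IL-6 groups (adjusted p 0.0894 to 0.165).

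Creld2, a secreted disulfide-rich factor that is a usual marker of ER stress, went the other way. It was at 56.7 and 54.7 FPKM in WT without IL-6, 61.7 and 63.7 FPKM in WT with IL-6, 48.8 and 50.7 FPKM in KO without IL-6, and 45.4 and 49.3 FPKM in KO with IL-6. All KO levels were below all WT levels. The difference was -0.16 without IL-6 (SE 0.050, limma adjusted p = 0.0225) and -0.40 with IL-6 (SE 0.050, limma adjusted p = 2.11e-04). The first of these calls ended without the untreated WT library 1 or the untreated KO library 1 (adjusted p 0.102 and 0.113).

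Hsp90b1, Hspa13 and Dnajb11 did not pass in either comparison. Hsp90b1 differed by 0.08 and 0.09 (limma adjusted p = 0.0726 and 0.0713), and 10.3% of its exon bases overlap 1810014B01Rik on the opposite strand. Hspa13, an ATPase related to Hsp70, differed by -0.02 and -0.05, and Dnajb11, a J-domain partner of BiP, by 0.01 and -0.12 (limma adjusted p = 0.0561 with IL-6).

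The lectins and disulfide isomerases held Pdia4, which together with Sec61a1 had the largest log2 difference without IL-6, and Pdia6, which fell most without IL-6. Of the 7, 6 were higher and 1 lower in KO cells, with and without IL-6. Beside these, 36.4% of all tested genes were higher and 34.5% lower without IL-6, and 36.9% and 34.8% with IL-6. Pdia4, also named ERp72, was at 50.7 and 48.5 FPKM in WT without IL-6, 46.1 and 48.3 FPKM in WT with IL-6, 139.8 and 137.3 FPKM in KO without IL-6, and 133.2 and 129.6 FPKM in KO with IL-6. Every KO library held well over double the level of any WT library. The difference was 1.46 in both comparisons (SE 0.041, limma adjusted p = 5.49e-08 without and 5.12e-08 with IL-6, a 2.79-fold ratio of means in each).

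Pdia6, a disulfide isomerase that also tempers Ire1, fell. Its levels were 225.5 and 224.0 FPKM in WT without IL-6, 219.2 and 232.3 FPKM in WT with IL-6, 173.2 and 170.8 FPKM in KO without IL-6, and 175.8 and 175.9 FPKM in KO with IL-6. No KO library reached the lowest WT library. The differences were -0.38 (SE 0.037, limma adjusted p = 5.07e-05) and -0.36 (SE 0.037, limma adjusted p = 7.26e-05).

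The remaining 5 of this group rose by 0.16 to 0.56 without IL-6 and by 0.26 to 0.51 with IL-6. Calr rose by 0.49 and 0.41, and Canx, its membrane-bound relative, by 0.36 and 0.41. Pdia3, the isomerase that works with these lectins, rose by 0.45 and 0.51. P4hb, which is also a subunit of the collagen prolyl hydroxylase, was at 519.1 and 526.2 FPKM in WT without IL-6, 585.0 and 598.2 FPKM in WT with IL-6, 753.8 and 788.2 FPKM in KO without IL-6, and 728.3 and 781.2 FPKM in KO with IL-6. Its WT groups also differed from each other, yet both stayed below the KO groups, by 0.56 (SE 0.045, limma adjusted p = 1.74e-05) and 0.35 (SE 0.045, limma adjusted p = 2.33e-04). Pdia5 rose least, by 0.16 and 0.26. Its call without IL-6 ended without the untreated WT library 2 or either untreated KO library (adjusted p 0.0762 to 0.143).

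Of the 8 degradation genes, 7 were tested, and 5 of these were higher in KO cells without IL-6 and 3 with IL-6. These are 71.4% and 42.9% of the 7, beside 36.4% and 36.9% of all tested genes. None was lower in either comparison, beside 34.5% and 34.8% of all tested genes. Edem1, a lectin that picks out misfolded glycoproteins, was at 12.9 and 14.7 FPKM in WT without IL-6, 16.4 and 14.9 FPKM in WT with IL-6, 29.2 and 28.3 FPKM in KO without IL-6, and 27.5 and 27.6 FPKM in KO with IL-6. The KO levels stood well clear of the WT levels. The differences were 1.01 (SE 0.071, limma adjusted p = 8.37e-06, a 2.08-fold ratio of means) and 0.78 (SE 0.071, limma adjusted p = 3.35e-05). The share of the transcript Edem1-202 in the gene's FPKM was 20% in WT and 28.1% in KO cells, and Edem1-201 was the most abundant in both. All 36 genes had the same most abundant transcript in WT and KO cells.

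Derl1, a channel protein of the degradation pathway, rose by 0.40 and 0.31. Herpud1, an organiser of the degradation complex, rose by 0.20 and 0.32. Its call without IL-6 ended when any one of the 4 untreated libraries or of the 2 KO libraries with IL-6 was left out (adjusted p 0.0541 to 0.164). Edem2, which trims mannose from misfolded glycoproteins, was higher by 0.21 without IL-6 and did not pass with IL-6 (0.08, limma adjusted p = 0.318). The call ended without any one of the 4 untreated libraries (adjusted p 0.0536 to 0.112). Syvn1, the ubiquitin ligase Hrd1, was higher by 0.22 without IL-6, a call that ended without the untreated WT library 2 or KO library 2 (adjusted p 0.101 and 0.107), and differed by -0.10 with IL-6 (limma adjusted p = 0.225). Its partner Sel1l did not pass (-0.10 and -0.06), nor did Derl2 (0.17 and 0.20).

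Derl3 was barely detected. It was at 0.639 and 0.431 FPKM in WT without IL-6, 0.971 and 0.768 FPKM in WT with IL-6, 0.134 and 0.114 FPKM in KO without IL-6, and 0.104 and 0.0502 FPKM in KO with IL-6. These levels correspond to about 9 to 27 fragments in the WT libraries and 0.99 to 2 in the KO libraries. All KO libraries lay below all WT libraries, and no fold is given at this depth. In a fit without the filter on low levels, over 27454 genes, its differences were -0.45 without IL-6 (limma adjusted p = 0.00775) and -0.79 with IL-6 (limma adjusted p = 6.89e-04). Below 1 FPKM the 1 that is added outweighs the level itself. These 2 differences therefore do not measure the size of the change, and they rest on few fragments.

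Of the 6 translocation and export genes, 4 were higher and 1 lower in KO cells in each comparison. Among all tested genes, 36.4% were higher and 34.5% lower without IL-6, and 36.9% and 34.8% with IL-6. Sec61a1, the pore subunit of the translocon, was at 53.9 and 51.9 FPKM in WT without IL-6, 56.8 and 59.0 FPKM in WT with IL-6, 146.9 and 146.8 FPKM in KO without IL-6, and 138.7 and 140.7 FPKM in KO with IL-6. The KO libraries stood at well over double the WT levels. The differences were 1.46 (SE 0.037, limma adjusted p = 3.17e-08, a 2.78-fold ratio of means) and 1.26 (SE 0.037, limma adjusted p = 6.27e-08). Of its exon bases, 8.16% overlap Gm44170 on the opposite strand.

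Sec61b, the small subunit of the same channel, fell. It was at 193.8 and 174.4 FPKM in WT without IL-6, 181.5 and 180.6 FPKM in WT with IL-6, 155.8 and 155.1 FPKM in KO without IL-6, and 147.6 and 163.8 FPKM in KO with IL-6. Although KO levels were all lower, WT libraries without IL-6 and KO libraries with IL-6 were spread widely. The differences were -0.24 (SE 0.063, limma adjusted p = 0.0103) and -0.22 (SE 0.063, limma adjusted p = 0.0155). The first call ended without the untreated WT library 1 (adjusted p 0.0614), and the second without WT library 1, WT library 2 or KO library 1 of the IL-6 groups (adjusted p 0.0525 to 0.0997). In level, Sec61b was above Sec61a1 by more than 3-fold in WT cells without IL-6 (means 184.1 and 52.9 FPKM) and close to it in KO cells (155.5 and 146.8 FPKM).

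Sec24d, a cargo adaptor of the vesicles that leave the ER, rose by 0.54 and 0.51. Ostc, a subunit of the oligosaccharyltransferase that attaches N-glycans, rose by 0.50 in both comparisons. Ssr3, of the translocon-associated complex, rose by 0.43 and 0.46, whereas Ssr1 of the same complex did not pass (0.03 and 0.06).

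**Figure D4:**
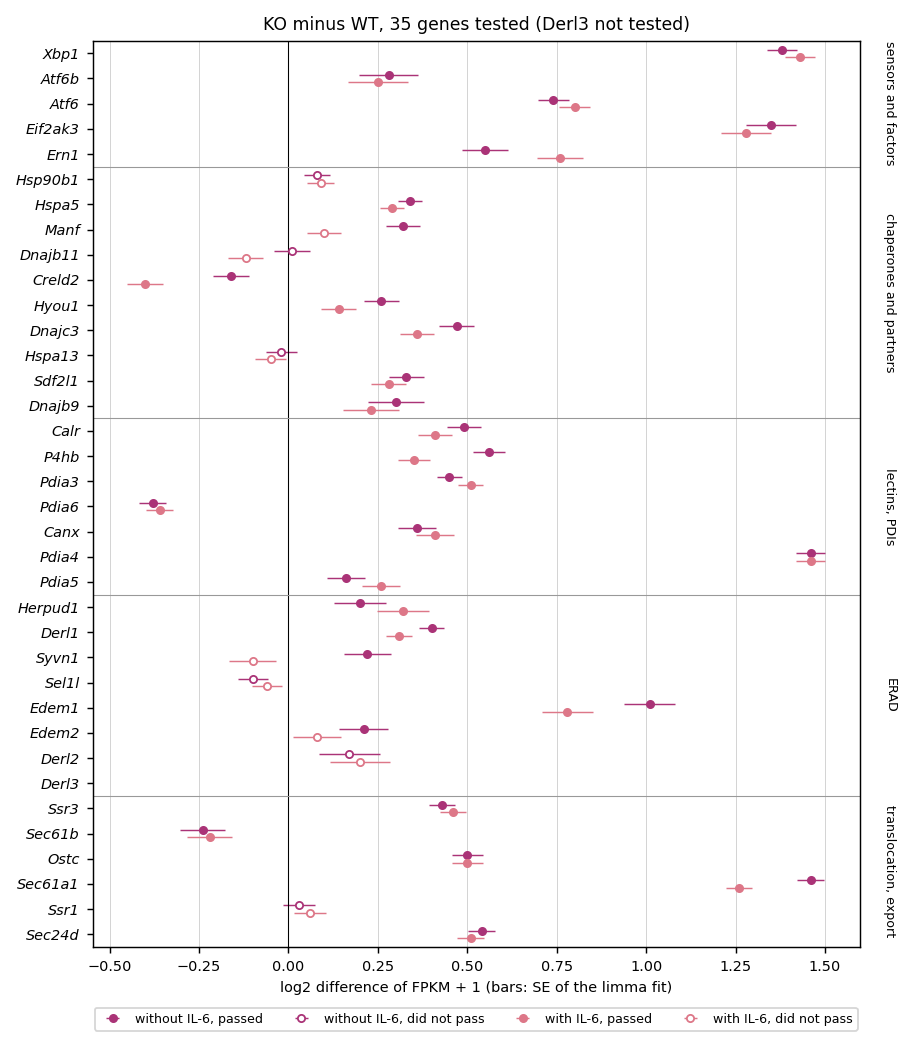
KO minus WT difference on the log2(FPKM + 1) scale with the SE of the limma fit, for each tested gene by role, without and with IL-6; filled points passed the adjusted p of 0.05 and open points did not. Pdia4, Sec61a1, Xbp1 and Eif2ak3 lie between 1.26 and 1.46 in both comparisons, most others lie between 0 and 0.6, and the filled points below 0 are those of Pdia6, Sec61b and Creld2.

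The 4 KO libraries also carried RNA that is not usual in fibroblasts. The summed level of 4 mesothelial markers (Msln, Upk3b, Krt19 and Wt1) was 38.3 to 52.7 FPKM in WT and 1088.3 to 1142.6 FPKM in KO libraries, with Wt1 at 0 in WT. That of 6 epithelial markers was 1.15 to 1.69 FPKM in WT and 82.3 to 87.2 FPKM in KO libraries, with 4 of 6 at 1 FPKM or more in KO and Krt5 at 0 throughout. For 4 endothelial markers it was 0.0689 to 0.181 FPKM and 10.8 to 12 FPKM, with only 2 of 4 at 1 FPKM or more in KO. For 8 fibroblast markers the sum was 3027.3 to 3875.9 FPKM in WT and 4390.9 to 4652.0 FPKM in KO libraries. The fibroblast markers did not move as one: without IL-6, 3 were higher in KO cells (Col1a1, Col3a1 and Fn1) and 4 lower (Pdgfra, Pdgfrb, Thy1 and Vim), with a median of -0.55, and with IL-6 4 were higher and 4 lower. Without IL-6, mean Pdgfra was 35.8 FPKM in WT and 8.11 FPKM in KO cells, and mean Pdgfrb 49.5 and 7.19 FPKM. The plasma-cell markers, of a cell type known for a large ER, summed to 55.9 to 68.1 FPKM in WT and 59.5 to 63.0 FPKM in KO libraries, and only Sdc1 of these 4 reached 1 FPKM. The 4 macrophage markers summed to 2.27 to 3.07 FPKM in WT and 1.66 to 2.22 FPKM in KO libraries, and the 4 muscle markers to at most 0.0492 and 0.582 FPKM. Apart from the plasma-cell sums, none of these ranges overlapped between genotypes, and their part in the genotype differences of the ER genes was not tested. In bulk RNA, fewer cells of a type and less RNA per cell cannot be told apart.

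Promoters were searched for the elements through which the response is known to act, because the members did not move by one amount. The ER stress element was searched as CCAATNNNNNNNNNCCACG on both strands, in the 250 bases before and 50 bases after the start of each gene in the RefSeq promoter table (GRCm38.p6). Of the 36 genes, 29 are in that table, and 9 of these hold the element, beside 0.137% of the 27025 genes in it. The matches are shown to let their shared ends and differing middles be compared, 5′ to 3′ on the strand that reads CCAAT first, with the fixed letters in capitals.
Hspa5: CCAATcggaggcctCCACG
Calr: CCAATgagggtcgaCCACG
Canx: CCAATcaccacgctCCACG
Creld2: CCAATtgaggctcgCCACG
Derl3: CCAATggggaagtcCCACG
Dnajc3: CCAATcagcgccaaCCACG
Hsp90b1, nearer site: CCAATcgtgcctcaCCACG
Hsp90b1, farther site: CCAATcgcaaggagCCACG
Pdia6: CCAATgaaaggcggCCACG
Syvn1: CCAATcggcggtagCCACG
That of Hspa5 lies at chr2:34772025-34772043 on the plus strand, 65 to 47 bases before the start, and that of Pdia6 at chr12:17266491-17266509. The related ER stress element II, ATTGGNCCACG, was found in Herpud1 (ATTGGgCCACG, chr8:94386377-94386387) and Dnajb11 (ATTGGcCCACG, chr16:22857852-22857862), beside 0.0444% of genes. The core TGACGTGG was found in Sec24d, beside 0.714% of genes.

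The genotype differences are given here for genes with and without an exact match in this window. Whether the element had a part in them was not tested. Of the 8 tested genes with it, 5 were higher and 2 lower in KO cells without IL-6, with a median of 0.28 and a range of -0.38 to 0.49. Of the 20 tested genes in the table without it, 15 were higher and 1 lower, with a median of 0.32 and a range of -0.24 to 1.46. Among all tested genes, 36.4% were higher and 34.5% lower in this comparison. These 20 include Herpud1, Dnajb11 and Sec24d, which hold one of the related elements. Members without an entry there were not searched. With IL-6 the medians were 0.19 and 0.30. Creld2 and Pdia4 were picked because they moved in opposite directions, and they do not stand for the genes with and without a match. Each is printed as the 170 bases before its RefSeq start on the strand of the gene. Creld2 has a match (capitals, here read on the opposite strand) and fell. Pdia4 has none in this window and rose by 1.46, the top of the range of the 20. The first is chr15:88819476-88819645 on the plus strand and the second chr6:47813513-47813682 on the minus strand.
Creld2: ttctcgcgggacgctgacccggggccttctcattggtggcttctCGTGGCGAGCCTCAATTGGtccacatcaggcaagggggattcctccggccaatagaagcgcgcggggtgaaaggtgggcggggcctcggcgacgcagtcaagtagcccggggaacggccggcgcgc
Pdia4: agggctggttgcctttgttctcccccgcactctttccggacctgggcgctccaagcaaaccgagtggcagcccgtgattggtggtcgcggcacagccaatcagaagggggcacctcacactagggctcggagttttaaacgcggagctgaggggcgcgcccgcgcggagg
A match is a description of letters and not a measured binding site.

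Other genes of the same pathways, which are not among the 36, were read from the same fit. Of 38 further folding factors, 21 were higher and 9 lower in KO cells without IL-6, with a median of 0.19. Those with the largest changes were Fkbp14 (2.07), a prolyl isomerase for collagen, Rcn1 (1.74), a calcium-binding ER protein, and Dnajc1 (1.66), a membrane J-protein. Of 23 further degradation genes, 10 were higher and 5 lower, with a median of 0.02. Of 30 further translocation and glycosylation genes, 18 were higher and 4 lower, led by Spcs3 of the signal peptidase (1.37), and of 21 export genes 15 were higher and 4 lower, led by the coat subunit Sec13 (0.95). With IL-6 the counts were 19 and 12, 9 and 5, 17 and 5, and 13 and 5. Beside these, 36.4% of all tested genes were higher and 34.5% lower without IL-6, and 36.9% and 34.8% with IL-6. The further degradation genes lay nearest to the share that was higher, at 43.5% without and 39.1% with IL-6.

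The genes downstream of Perk and of the wider integrated stress response did not move as one. Of 27 such genes, 15 were higher and 7 lower in KO cells without IL-6, with a median of 0.47. The shares of all tested genes were 36.4% and 34.5%. Ddit3, which encodes the death-promoting factor CHOP, was at 83.8 and 82.8 FPKM in WT and 47.9 and 49.9 FPKM in KO cells without IL-6, and at 79.8 and 70.9 FPKM and 47.5 and 43.5 FPKM with IL-6. It fell, by 0.76 (SE 0.066, limma adjusted p = 2.79e-05) and by 0.71 (SE 0.066, limma adjusted p = 3.69e-05), while its upstream factor Atf4 rose by 0.47 and 0.18. Trib3, a pseudokinase induced by Atf4 and CHOP, rose by 1.77 and 1.54, Asns, asparagine synthetase, by 2.24 and 1.78, and Chac1, a glutathione-degrading enzyme, by 1.70 and 1.35. Atf3, another factor of this response, differed by -0.06 without IL-6 (limma adjusted p = 0.626) and by -0.68 with IL-6 (limma adjusted p = 5.57e-04).

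Among 17 further ER sensors and partner factors, 8 were higher and 8 lower without IL-6, and the same numbers with IL-6. The shares of all tested genes were 36.4% higher and 34.5% lower without IL-6, and 36.9% and 34.8% with IL-6. Creb3l2 and Creb3l1, ER-bound factors that are cleaved like Atf6 and serve secretory cells, rose by 1.84 and 1.67 without IL-6 and by 1.78 and 1.66 with IL-6. Nfya, a subunit of the factor that binds the CCAAT part of the element, rose by 0.92 and 1.07. The cytosolic heat-shock genes were mixed, 6 higher and 7 lower of 15 without IL-6, beside the same shares of all tested genes. Hspa1b differed by -2.83 and Hspa1a by -1.76, but these 2 genes are near-identical copies whose reads the counting may have split, so their separate values are uncertain.

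The second question is whether IL-6 changed the ER genes. In WT cells, 1 of the 35 passed as higher, against 8.30% of all tested genes, and 1 as lower, against 7.41%. The median change was 0.01 and the range -0.27 to 0.20. An unadjusted p below 0.05 was seen in 8 of the 35 members, beside 3993 of the 13693 tested genes. The 2 that passed were P4hb, which rose by 0.18 (SE 0.045, limma adjusted p = 0.0370) from the levels given above, and Herpud1. Herpud1 was at 43.7 and 46.0 FPKM in WT without IL-6, 39.9 and 34.1 FPKM in WT with IL-6, 51.3 and 51.9 FPKM in KO without IL-6, and 45.0 and 47.5 FPKM in KO with IL-6. In each genotype the libraries with IL-6 were the lower ones. In WT it fell by 0.27 (SE 0.072, limma adjusted p = 0.0429), and in KO the change was -0.15 (SE 0.072, limma adjusted p = 0.703).

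Neither call was stable. That of P4hb ended when any one of the WT libraries or of the untreated KO libraries was left out (adjusted p 0.0532 to 0.140). That of Herpud1 ended without any one library other than WT library 1 with IL-6 (adjusted p 0.0654 to 0.178). Equal library totals in place of the deposited scale moved the share of higher among all passing genes from 52.8% to 34.8%, and under it P4hb did not pass. The next closest members in WT were Sec61a1 (0.13, limma adjusted p = 0.0570), Creld2 (0.17, 0.0635), Manf (0.16, 0.0662), Syvn1 (0.20, 0.0826) and Dnajc3 (0.15, 0.0850), none of which passed.

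In KO cells no member passed, against 0.0219% of all tested genes, which is 3 genes. No member had an unadjusted p below 0.05 either, beside 1025 of the 13693 tested genes. The lowest limma adjusted p of a member was 0.703, and the count of members that passed was 0 under each alternative setting run. Changes ranged from -0.15 to 0.13 with a median of -0.01. The sensors changed by -0.08 to 0.03 in WT and by -0.06 to 0.13 in KO cells. Xbp1 was at -0.08 in WT and -0.03 in KO cells, and Hspa5 at 0.05 and 0.00.

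**Figure D5:**
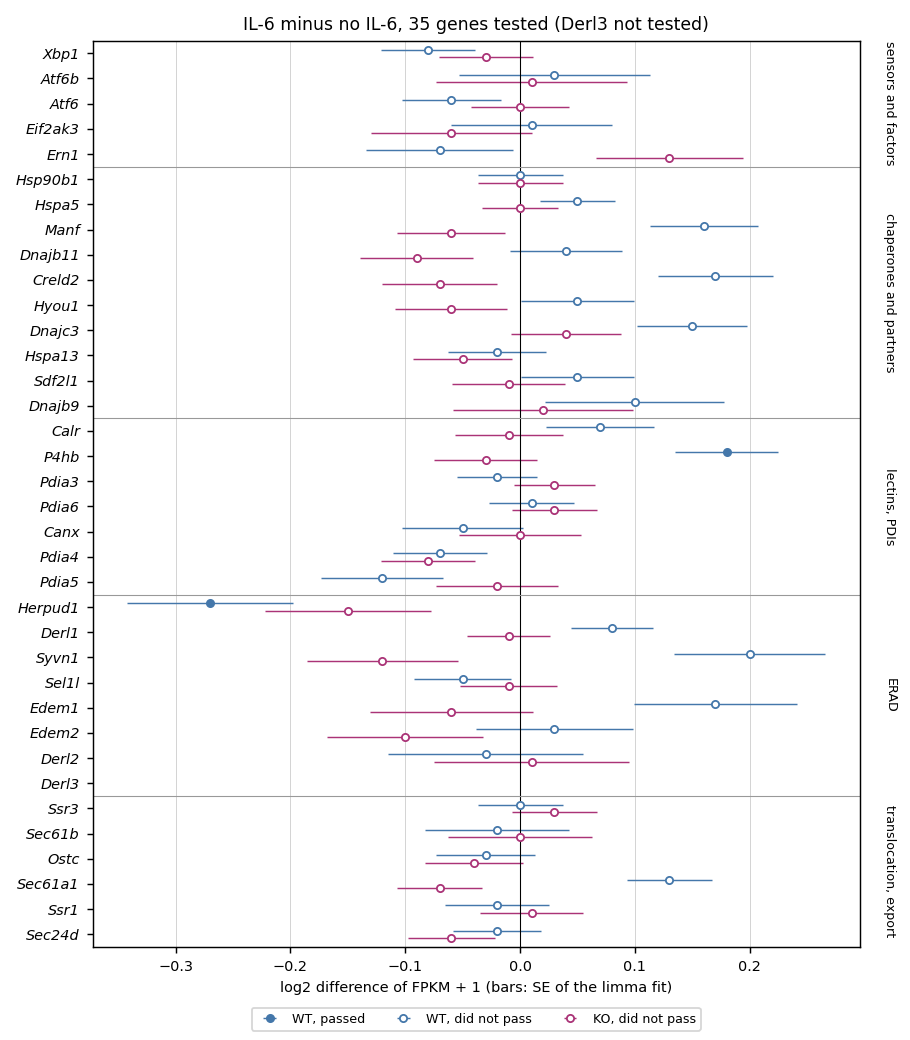
IL-6 minus no IL-6 difference on the log2(FPKM + 1) scale with the SE of the limma fit, for each tested gene by role, in WT and in KO cells; filled points passed the adjusted p of 0.05 and open points did not. All values lie between -0.27 and 0.20, and only P4hb and Herpud1 in WT are filled.

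The third question is whether the IL-6 change differed between genotypes, tested as the interaction of genotype and IL-6. No member passed, against 6.06% of all tested genes. By limma, 5 of the 35 members had an unadjusted p below 0.05, beside 2916 of the 13693 tested genes, so such values were common. The 5 were Sec61a1 (-0.20), Creld2 (-0.24), Manf (-0.22), P4hb (-0.21) and Syvn1 (-0.32), each with a more negative IL-6 change in KO than in WT cells. Their adjusted p-values were 0.0732 to 0.114, and the count of members that passed was 0 under each alternative setting run. For Edem2, which passed between genotypes only without IL-6, the difference was -0.13. For Xbp1 it was 0.05, for Eif2ak3 -0.07 and for Pdia4 -0.01, beside genotype differences above 1 in each. Among the other genes of the lists, Cebpb, a transcription factor of the acute-phase response, rose with IL-6 in WT by 0.68 and Atf3 by 0.66, and the amino acid carrier Slc7a5 fell by 0.55.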

How the data were processed

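RNA of 8 libraries (2 per group) was analysed. Per the labels' protocols, total RNA was column-purified and prepared with a stranded mRNA kit. Per the submitters' processing notes, HISAT2, Cufflinks 2.2.1 and GRCm38.p6 were used; whether strand was used in counting is not given in the sources used here. The authors deposited FPKM per transcript (142869 per library), which are not counts. From these, transcripts were summed per gene, and 13693 genes that reached 1 FPKM in 2 or more libraries were retained. Values were tested as log2(FPKM + 1) with limma 3.58.1 (R 4.3.3), fitting 4 group means with 4 residual degrees of freedom, a prior variance that follows intensity, and p-values adjusted by Benjamini-Hochberg across the whole table. The script was tested on simulated data. The pseudocount understates changes of low genes.

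Depth was estimated from the steps of low FPKM values: 93.2% to 94.3% of the values used came within 0.1 of whole fragments. Depth limits mainly Derl3.

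The members and all gene lists were chosen with earlier results of these data known. By the naming rule, each member is named; values in every library are given for Hspa5, the sensors and factors, and in each comparison up to 6 passing members that rose most and up to 6 that fell most; of other lists, Arid5a, Ddit3, Atf4, Trib3 and Atf3 and up to 3 passing genes per list and comparison are named. Same-numbered libraries were not treated as pairs in the main fit. The correlations of their deviations between groups ran from -0.0973 to 0.0549. These values gave no sign of pairing but cannot exclude it. The alternatives were another normalization (quantile, equal totals, median ratio), no trend, other filters (none, 5 FPKM), a pseudocount of 0.1, a replicate block, only the groups compared, and leaving out each library. They were planned for the members, and their use for other named genes was added after seeing the data. Of 208 symbols in the lists of other genes, 2 were matched by a synonym.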

Additional observations from a re-analysis of the deposited data

Results flagged for a closer look

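No member was marked for a closer look. Among the other genes of the lists, the IL-6 change differed between KO and WT cells by the interaction test (limma adjusted p below 0.05 over all genes) in 11 genes, given here as KO minus WT. In 8 the change was more negative in KO cells. These were the folding factors Txndc5 (-0.27) and Fkbp2 (-0.32), the oligosaccharyltransferase subunit Krtcap2 (-0.30), the retrieval receptor Kdelr3 (-0.31), Atf4 (-0.28), Asns (-0.46), the mTOR inhibitor Ddit4 (-0.54) and the amino acid carrier subunit Slc3a2 (-0.26). In 3 it was more positive: the prolyl isomerase Ppic (0.41), Slc7a5 (0.33) and the ER membrane protein Wfs1 (0.42). Asns rose by 0.36 in WT and changed by -0.10 in KO cells. Ppic fell by 0.43 in WT and changed by -0.02 in KO cells. Of these 11 calls, 2 held in all settings run and 9 ended in at least 1 of them, those of Txndc5, Fkbp2, Krtcap2, Kdelr3, Atf4, Ddit4, Slc3a2, Slc7a5 and Wfs1.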

How the results depend on the processing

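Of the 29 members that passed between genotypes without IL-6, 22 passed in the same direction under all settings run, and of the 26 with IL-6 also 22. Of the 2 that passed for IL-6 in WT, 0 did. Of the other genes named, the 24 and 25 genotype calls held in each setting, and of 16 calls for IL-6 in WT 5 held. The count of members that passed for IL-6 in WT was 1 with quantile normalization, 1 with equal totals, 1 with the replicate block, and 0 with no trend, no filter or only the groups compared; it was 0 to 1 when a library was left out. Members passing between genotypes numbered 24 to 29 without IL-6 and 23 to 27 with IL-6 when a library was left out. With the replicate block these counts were 29 and 26. All genes passing for IL-6 in WT numbered 2150, 938 with only the groups compared, and 1143 to 1777 without a library. In KO they numbered 3, and 7 with no filter, 5 with the filter of 5 FPKM, 0 with only the groups compared and 0 to 6 without a library. For the interaction they numbered 830, and 521 with no filter and 397 to 528 without a library. The cause of these shifts was not tested.

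Signs turned only in members that had not passed. With equal totals, Hspa13 was at 0.03 without and 0.04 with IL-6 and Sel1l at 0.03 with IL-6. When a library was left out, the genotype difference without IL-6 ran from -0.07 to 0.02 for Hspa13, from -0.04 to 0.07 for Dnajb11 and from -0.02 to 0.09 for Ssr1, and that with IL-6 from -0.02 to 0.18 for Edem2. Equal totals gave a median over all genes of at most 0.095 in size in any comparison, and moved the share of higher among passing genes in the interaction from 41.9% to 55.1%.

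Depth limits what can be said of Derl3.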
